A study of Mus musculus with 15 samples.

Results

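Infusion of angiotensin II was compared with Sham across all 15 aorta libraries, with the 10 infused libraries on one side and the 5 Sham libraries on the other. The infused side holds 5 libraries of mice that received angiotensin II (AngII) alone and 5 of mice that received AngII with resolvin E1 (AngII+RvE1), and each infused group has the same weight. AngII, the peptide hormone that raises blood pressure by constricting vessels, was given at 750 ng/kg per minute. RvE1, a mediator derived from the omega-3 fatty acid EPA that helps end inflammation, was injected into the peritoneum at 2 µg/kg per day. All mice carry the label WT, Sham mice received neither agent under the labels, and the labels used here give no strain, age, sex, duration of infusion or hour of collection. The comparison asks which aortic genes differed after infusion whether or not RvE1 was given. The labels do not say that libraries of a group came from separate mice, and p-values here reflect only how much these libraries vary.

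Of the 19 genes that differed, 10 belong to the circadian clock. In this oscillator the activators BMAL1 (gene Arntl) and CLOCK or NPAS2 bind E-box motifs and switch on period, cryptochrome and REV-ERB genes, whose proteins then repress the activators. REV-ERB receptors act on the motif called RORE, and the output factors DBP, TEF and HLF act on the D-box, where NFIL3 represses. Smooth muscle, endothelium and the fat around the aorta each run such a clock, and transcripts of Arntl and Dbp are known to peak at opposite times of day. The labels give no hour of collection, so its part in these differences was not tested. Words such as rose and fell compare infused with Sham libraries only.

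Values are treated as FPKM, a level scaled to gene length and library depth, and differences are infused minus Sham in mean log2(FPKM + 1). The added 1 pulls differences of genes with low values toward 0. Among 12603 genes tested, 15 were higher (0.119%) and 4 lower (0.0317%) in the infused aortas at an adjusted p under 0.05 (limma, Benjamini-Hochberg), 19 in all (0.151%). Without adjustment, 1120 genes (8.89%) were higher and 329 (2.61%) lower at a p under 0.05. When libraries were rescaled to a common median ratio, 11 were higher and 8 lower, which made 57.9% of the calls higher instead of 78.9%. Of the 19 genes, 10 are clock genes, out of 20 clock genes tested, with 7 higher and 3 lower. In 12 of the 19 no infused library overlapped a Sham library, against 30 genes (0.238%) among all tested, of which 25 were higher (0.198%) and 5 lower (0.0397%). In bulk tissue, fewer cells of a type and less RNA per cell cannot be told apart.

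Promoter letters are shown for the called clock genes with a clock motif before the start, since these motifs are where the clock factors are known to act. Windows ran from 250 bases before to 50 after each RefSeq transcript start (GRCm38.p6), and both strands were searched. Capitals mark the E-box CACGTG in Ciart, Tef and Bhlhe41, the D-box TTATGTAA in Per3, and TGACCTA in Nfil3, which is the RORE core TAGGTCA read on the other strand. None of the matches shown overlap each other.
Ciart, chr3:95882242-95882369, minus strand: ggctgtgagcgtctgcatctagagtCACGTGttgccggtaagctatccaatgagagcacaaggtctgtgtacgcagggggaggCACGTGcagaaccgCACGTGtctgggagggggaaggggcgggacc
Tef, chr15:81802521-81802576, plus strand: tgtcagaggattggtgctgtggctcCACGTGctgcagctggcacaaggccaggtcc
Tef, chr15:81811251-81811306, plus strand: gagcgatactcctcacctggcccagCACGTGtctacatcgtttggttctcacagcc
Bhlhe41, chr6:145865543-145865598, minus strand: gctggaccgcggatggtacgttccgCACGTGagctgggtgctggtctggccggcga
Per3, chr4:151044791-151044895, minus strand: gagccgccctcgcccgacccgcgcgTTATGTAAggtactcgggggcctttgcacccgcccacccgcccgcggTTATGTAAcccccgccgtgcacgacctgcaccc
Nfil3, chr13:52981020-52981076, minus strand: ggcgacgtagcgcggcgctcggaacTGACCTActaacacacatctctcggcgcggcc
Ciart holds 3 E-boxes, which begin 116, 58 and 44 bases before the start, and each of the Tef starts has 1 within 138 bases. In Per3, the D-boxes begin 205 and 158 bases before the start. An E-box stood in the windows of 3 of the 10 called clock genes and in 7.15% of all 32851 windows, which belong to 27025 genes (8.09% of genes). The D-box, searched as TTATGTAA or TTACGTAA, stood in 1 of the 10 and in 1.06% of windows (1.23% of genes). The RORE core, searched as AAGGTCA or TAGGTCA, stood in 2 of the 10, Nfil3 and Arntl (30 bases after the start and not shown), and in 7.16% of windows (8.11% of genes). A match describes these letters only, and the windows of Dbp, Nr1d1, Nr1d2 and Npas2 hold none of the 3 motifs.

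Of the 4 output factors that act on D-boxes, 2 rose and 1 fell. Dbp (chr7:45705100-45710203), which activates D-box genes, had 6.68, 3.85, 3.83, 2.18 and 4.02 FPKM in the 5 Sham libraries. It had 85.5, 107, 47.3, 110.0 and 48.2 FPKM in the AngII libraries and 43.5, 34.2, 51.6, 74.9 and 86.5 FPKM in the AngII+RvE1 libraries. The lowest infused library thus lay above the highest Sham library, and the infused groups overlapped each other. Mean levels were 68.9 ± 27.6 FPKM over 10 infused and 4.11 ± 1.62 over 5 Sham libraries (SD), and the log2 difference was 3.72 (SE 0.27, adjusted p = 6.72e-06 by limma). Tef (chr15:81802673-81826863), a relative of Dbp, had 16.5, 21.5, 18.8, 17.8 and 20.2 FPKM in Sham, and in the infused libraries a lowest value of 32.3, a median of 41.2 and a highest of 66.6. All 10 infused libraries of Tef lay above Sham, with a log2 difference of 1.18 (SE 0.15, adjusted p = 0.00367). Nfil3 (chr13:52967209-52982878), the repressor at D-boxes, went the other way, from 40.7, 20.4, 29.1, 18.4 and 28.2 FPKM in Sham to between 3.17 and 14.9 FPKM (median 5.52) after infusion. No library overlapped, and the log2 difference was -1.91 (SE 0.30, adjusted p = 0.0157). Hlf, the remaining member of the family, did not pass the test (0.38, adjusted p = 0.557).

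**Figure D1:**
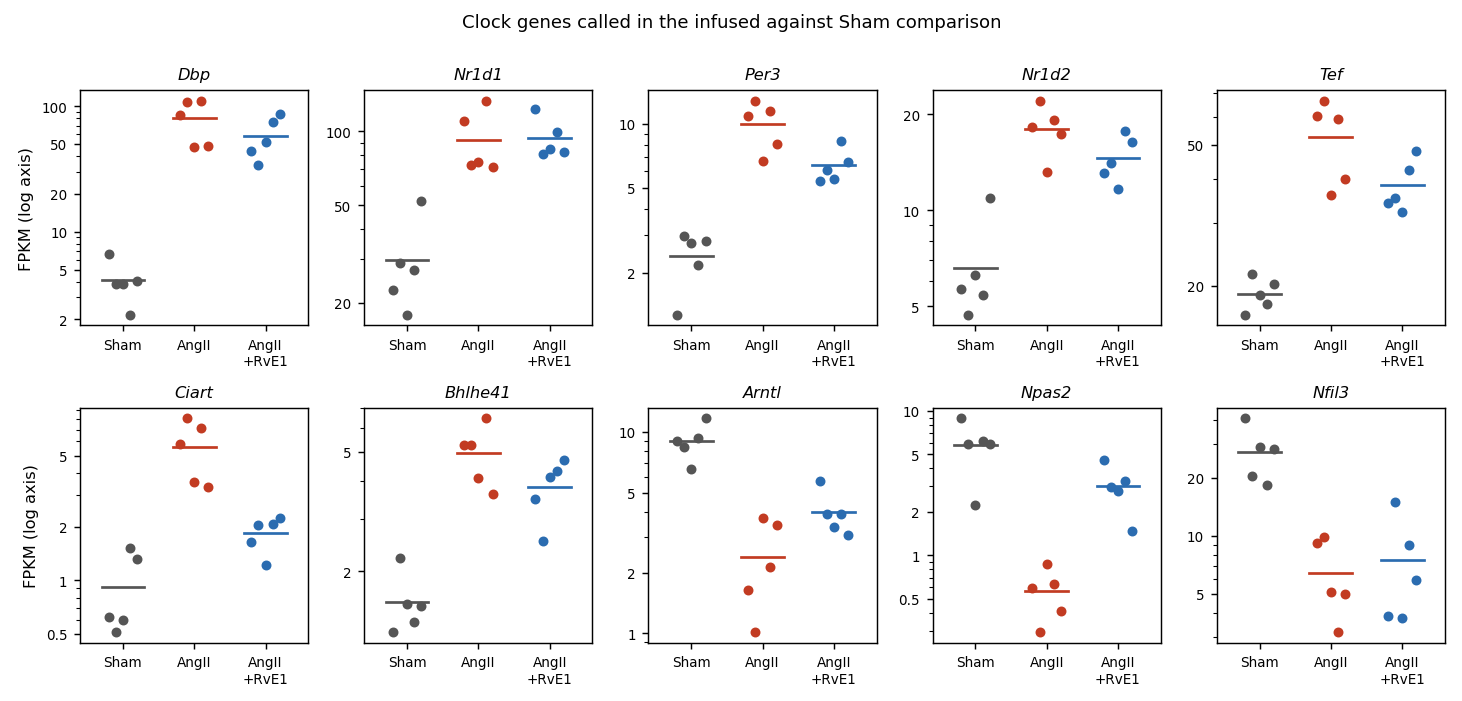
FPKM (log axis) of the 10 called clock genes in each library, by group (n = 5 each), with a line at the group mean. In Dbp, Nr1d1, Per3, Nr1d2, Tef and Bhlhe41 every infused library lies above every Sham library, in Arntl and Nfil3 below, while Ciart and Npas2 overlap through AngII+RvE1 libraries.

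Both REV-ERB genes rose. Nr1d1 (REV-ERB alpha, chr11:98767932-98775377) had 22.4, 29.0, 17.8, 27.1 and 52.2 FPKM in Sham against 71.5 to 133 FPKM (median 83.8) in the infused libraries. Nr1d2 (REV-ERB beta, chr14:18204056-18239106) had 5.65, 4.70, 6.28, 5.41 and 10.9 FPKM in Sham against 11.7 to 22.02 FPKM (median 16.9). In each gene Sham library 5 was the highest of Sham, and it still lay below every infused library. The log2 differences were 1.68 (SE 0.22, adjusted p = 0.00424) for Nr1d1 and 1.22 (SE 0.16, adjusted p = 0.00424) for Nr1d2. Rora, a receptor that activates at the motifs where REV-ERB represses, did not pass (-0.21, adjusted p = 0.673). Rorb was below the filter.

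Of the 8 repressors of the period and cryptochrome loop, 3 rose. Per3 (chr4:150997018-151044707), the period gene least tied to timekeeping itself, had 1.27, 2.97, 2.76, 2.18 and 2.83 FPKM in Sham and 5.42 to 12.8 FPKM (median 7.37) after infusion. Bhlhe41 (DEC2, a repressor that competes at E-boxes, chr6:145858243-145865420) had 1.26, 2.21, 1.56, 1.36 and 1.54 FPKM in Sham and 2.52 to 6.48 FPKM (median 4.24) after infusion. Neither gene overlapped between infused and Sham libraries. The log2 differences were 1.41 (SE 0.16, adjusted p = 0.00203) for Per3 and 1.04 (SE 0.14, adjusted p = 0.00424) for Bhlhe41. Ciart (CHRONO, which represses BMAL1, chr3:95878500-95882257) had 0.624, 0.512, 0.599, 1.53 and 1.31 FPKM in Sham and 1.22 to 8.10 FPKM (median 2.78) after infusion. In Ciart 9 of 10 infused libraries lay above Sham, and the log2 difference was 1.17 (SE 0.19, adjusted p = 0.0185).

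The best known repressors of the same loop did not pass. Per1 was spread from 3.78 to 20.5 FPKM within Sham, and differed by 0.22 (95% interval -0.54 to 0.98, adjusted p = 0.850). Per2 was spread from 2.23 to 10.4 FPKM within Sham and differed by 0.34 (95% interval -0.32 to 0.99, adjusted p = 0.702). These intervals are wide, with room for changes in either direction. Cry2 lay above Sham in all 10 infused libraries, at 11.02 FPKM on average in AngII and 10.94 in AngII+RvE1 against 7.15 ± 1.46 in Sham, and missed the threshold (0.56, SE 0.12, adjusted p = 0.0847). Cry1 differed by -0.72 (SE 0.14, adjusted p = 0.0571), and its mean was further below Sham in AngII+RvE1 than in AngII (1.62 ± 0.46 and 3.13 ± 0.84 FPKM, against 4.39 ± 0.66 in Sham; SD, n = 5 each; difference between the infused groups -0.65, adjusted p = 0.0278). Bhlhe40 differed by 0.12 (adjusted p = 0.886).

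Of the 4 activators, 2 fell. Arntl (BMAL1, chr7:113178471-113314126) had 9.04, 8.46, 6.58, 9.33 and 11.7 FPKM in Sham. It had 1.63, 1.01, 3.76, 2.14 and 3.45 FPKM in the AngII libraries and 5.72, 3.89, 3.38, 3.92 and 3.06 FPKM in the AngII+RvE1 libraries. Every infused library lay below every Sham library, and the log2 difference was -1.31 (SE 0.19, adjusted p = 0.0112). Npas2 (chr1:39193702-39363240), which can stand in for CLOCK as the partner of BMAL1, had 8.90, 5.92, 2.22, 6.20 and 5.94 FPKM in Sham and 0.294 to 4.56 FPKM (median 1.18) after infusion. Only 6 of 10 infused libraries of Npas2 lay below the lowest Sham library, Sham 3, and 5 of these were AngII. Its log2 difference was -1.39 (SE 0.22, adjusted p = 0.0185). Clock itself differed by -0.48 (SE 0.11, adjusted p = 0.126), and passed when libraries were rescaled (-0.54, adjusted p = 0.0188). Arntl2 differed by 0.21 (adjusted p = 0.512).

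Calls of single genes rested to different degrees on the Sham libraries. Dbp, Per3, Tef, Nr1d1, Nr1d2 and Bhlhe41 were called in each of the 15 fits that left out 1 library, and these 6 were all that was called without Sham library 5. Arntl and Nfil3 lost their calls without Sham library 5 alone (adjusted p = 0.0586 and 0.0678). Npas2 lost its call without Sham 2, 4 or 5 and Ciart without Sham 2, 3 or 5, at adjusted p up to 0.0763 and 0.0791. Without AngII libraries 3, 4 and 5, Arntl and Ciart were called, while Nfil3 (-1.61, adjusted p = 0.114) and Npas2 (-1.45, adjusted p = 0.0943) were not, with differences of similar size to those over all libraries. When the 10 infused libraries were fitted as a single group, so that differences between AngII and AngII+RvE1 count as spread, 7 clock genes were called, and Arntl (adjusted p = 0.0503), Npas2 (0.403) and Ciart (0.403) were not.

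Exons of Dbp share 539 bases with Sphk2 on the opposite strand in the GENCODE vM21 annotation, and those of Nr1d1 share 263 bases with Thra. The labels do not say whether counting used strand. Sphk2 differed by 0.23 (adjusted p = 0.523), at 11.2 FPKM in Sham and 13.3 after infusion. Thra differed by -0.19 (adjusted p = 0.694), at 74.4 and 66.4 FPKM, so neither partner showed the change of its clock gene. Bhlhe41 (855 bases), Tef (193) and Arntl (33) share exon bases with genes on the opposite strand that were not tested.

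Outside the clock, 9 genes were called, 8 higher and 1 lower, and 8 of the 9 are described here. Ralgds (chr2:28513089-28553082), an exchange factor that activates Ral GTPases, had 7.88, 6.22, 4.01, 6.81 and 5.31 FPKM in Sham against 7.98 to 28.0 FPKM in the infused libraries. Sham 1 lay just under the lowest infused library of Ralgds, and the log2 difference was 0.98 (SE 0.16, adjusted p = 0.0185). Slc5a6 (chr5:31036036-31048924), the transporter of biotin and pantothenate, had 3.48 ± 0.31 FPKM in Sham and 7.64 ± 3.58 after infusion (SD, n = 5 and 10). In Slc5a6, 8 of 10 infused libraries lay above Sham (log2 difference 0.83, SE 0.13, adjusted p = 0.0130). Exons of Slc5a6 share 145 of 3819 bases with Atraid on the opposite strand, a gene that averaged 109.8 FPKM over all libraries. What reads of Atraid add to the values of Slc5a6 was not tested.

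Mtmr14 (chr6:113237635-113281392), a phosphatase of phosphoinositides, had 9.92, 12.5, 11.7, 10.9 and 10.4 FPKM in Sham and 14.1 to 30.2 FPKM (median 20.9) after infusion, without overlap. Its log2 difference was 0.84 (SE 0.14, adjusted p = 0.0193). Ddhd1 (chr14:45593171-45658143), a phospholipase that prefers phosphatidic acid, rose from 4.58 ± 0.78 to 8.14 ± 2.02 FPKM (0.69, SE 0.12, adjusted p = 0.0193), with 9 of 10 infused libraries above Sham. St3gal6 (chr16:58469742-58524260), a sialyltransferase of glycoproteins and glycolipids, was at 8.87 ± 1.04 FPKM in Sham and 14.3 ± 5.63 over the infused libraries (0.54, SE 0.09, adjusted p = 0.0193). Its 5 infused libraries above Sham were all AngII. Cyp51 (chr5:4080674-4104697), the lanosterol demethylase of cholesterol synthesis, had 10.3, 10.9, 15.2, 10.9 and 9.92 FPKM in Sham and 4.74 to 8.48 FPKM (median 6.45) after infusion. All infused libraries of Cyp51 lay below Sham, and the log2 difference was -0.70 (SE 0.12, adjusted p = 0.0193).

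Mycl (chr4:122995588-123002490), a transcription factor of the MYC family, was at 0.569 ± 0.289 FPKM in Sham and 2.44 ± 2.06 over the infused libraries (0.91, SE 0.15, adjusted p = 0.0196). The libraries of Mycl above Sham were the 5 of AngII. Mycl passed the filter through these, since elsewhere only Sham 1 (1.01 FPKM) reached 1 FPKM. Ivns1abp (chr1:151344486-151364445), which encodes a kelch protein that binds actin, had 23.9 ± 5.92 FPKM in Sham and 50.8 ± 18.6 after infusion (lowest 26.7, highest 84.9), with 9 of 10 libraries above Sham (1.01, SE 0.19, adjusted p = 0.0460). Ivns1abp kept its call in only 5 of the 15 fits that left out 1 library. Ddhd1 and Ivns1abp were named after their values had been seen. Of these 9 genes, none was called when the infused libraries were fitted as a single group or without Sham library 5, and Slc5a6 was the only one called without Sham library 2. Ddhd1, Ivns1abp, Mtmr14 and St3gal6 were not called when libraries were rescaled. Exons of St3gal6 share 1603 bases with Dcbld2 on the opposite strand, a gene at 5.07 FPKM in Sham and 4.28 after infusion (log2 difference -0.17, adjusted p = 0.743).

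**Figure D2:**
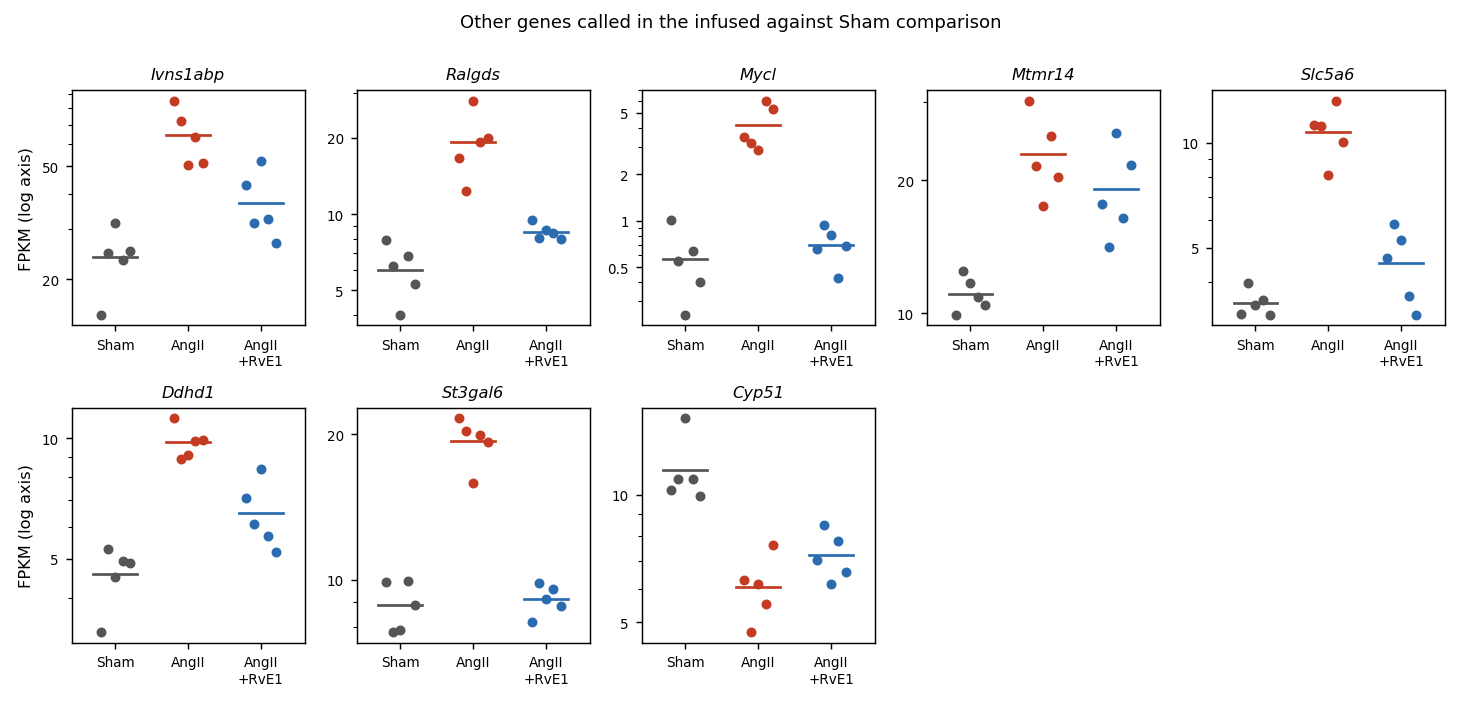
FPKM (log axis) of 8 of the 9 called genes outside the clock in each library, by group (n = 5 each), with a line at the group mean. Cyp51 alone is lower after infusion, and in Mycl and St3gal6 the AngII+RvE1 libraries lie within the Sham range while all 5 AngII libraries lie above it.

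The pooled difference was not shared alike by the infused groups. AngII and AngII+RvE1 are each set against the same 5 Sham libraries, so their differences are given side by side only. Dbp differed from Sham by 3.94 in AngII and 3.51 in AngII+RvE1, Nr1d1 by 1.65 and 1.71, and Nfil3 by -1.97 and -1.85. With AngII+RvE1 alone set against Sham, Dbp (adjusted p = 0.000112 by limma) and Nr1d1 (0.0365) passed, and Nfil3 did not (0.114). In these 3 genes the differences between the infused groups (AngII+RvE1 minus AngII) were -0.43 (95% interval -1.09 to 0.22), 0.06 (-0.48 to 0.60) and 0.12 (-0.62 to 0.86), with adjusted p of 0.370, 0.911 and 0.855. Nr1d2 differed between the infused groups by -0.28 (-0.68 to 0.12), Bhlhe41 by -0.30 (-0.64 to 0.05), Cyp51 by 0.22 (-0.07 to 0.51) and Mtmr14 by -0.26 (-0.60 to 0.09). Intervals for Per3 (-0.56, -0.96 to -0.15), Tef (-0.41, -0.78 to -0.05) and Arntl (0.61, 0.13 to 1.08) did not reach 0, while their adjusted p of 0.0758, 0.127 and 0.0959 missed the threshold. For these 10 genes a difference between the infused groups was not called, which does not show that they changed alike. Against Sham, all 10 passed in AngII, at adjusted p up to 0.0117 by limma. In AngII+RvE1 against Sham, Per3 (adjusted p = 0.0741), Tef and Nr1d2 (0.0881 each) and Bhlhe41 (0.0984) did not pass. Neither did Arntl, Cyp51 and Mtmr14 (0.343 each).

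In the other 9 called genes the infused groups differed, each time with AngII further from Sham, and 8 of the 9 are described. AngII+RvE1 is compared with AngII here, a comparison in which 1074 of all genes tested (8.52%) were called. Npas2 differed from Sham by -2.06 in AngII and -0.73 in AngII+RvE1 (difference 1.33, SE 0.26, adjusted p = 0.0159). Ciart differed by 1.75 and 0.59 (difference -1.16, SE 0.22, adjusted p = 0.0148). These were the clock genes of the 9, with AngII levels apart from AngII+RvE1 levels in every library. Mycl had 1.70 against 0.13 (difference -1.57, adjusted p = 0.00157), St3gal6 1.05 against 0.04 (-1.01, adjusted p = 0.00111) and Slc5a6 1.38 against 0.28 (-1.09, adjusted p = 0.00828). Ralgds had 1.504 against 0.46 (-1.05, adjusted p = 0.0135), Ivns1abp 1.40 against 0.61 (-0.79, adjusted p = 0.0384), and Ddhd1 0.96 against 0.42 (-0.54, adjusted p = 0.0293). Mycl and St3gal6 thus passed the pooled test on AngII libraries, with AngII+RvE1 near Sham. For comparison, AngII alone against Sham gave 400 called genes (3.17%) and AngII+RvE1 against Sham 3 (0.0238%), counts that share Sham. Those 3 were Dbp, Nr1d1 and Cry1, of which Cry1 did not pass in AngII (adjusted p = 0.135 by limma).

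**Figure D3:**
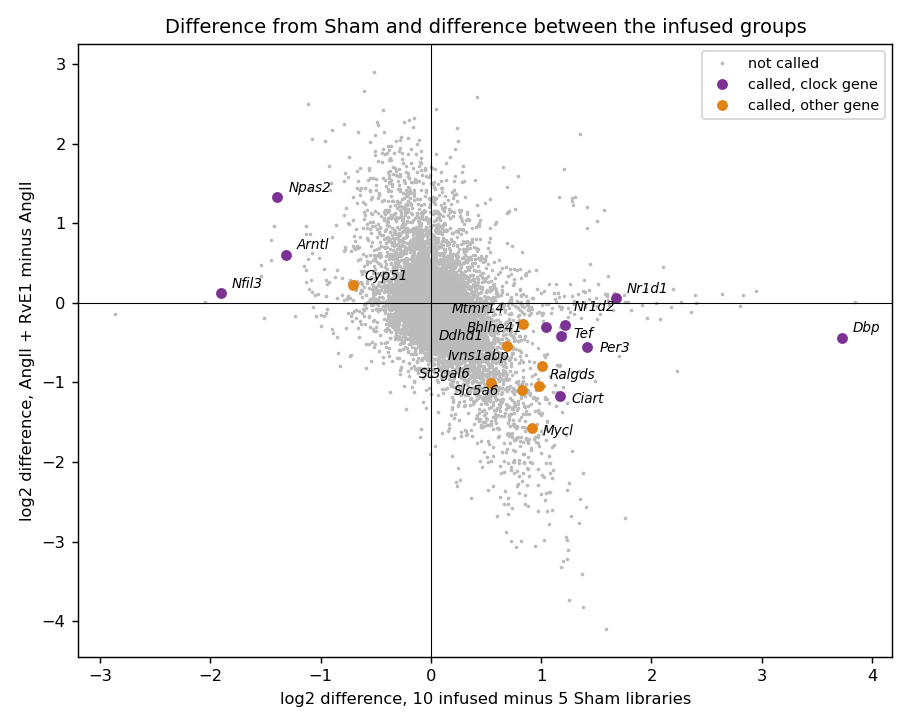
Difference of the infused libraries from Sham (horizontal, log2) and of AngII+RvE1 from AngII (vertical, log2) for the genes tested, with 18 of the 19 called genes in colour. Nr1d1 (1.68) lies near a vertical 0, and Dbp (3.72) lies at -0.43, a difference that was not called. Mycl (0.91) and Ciart (1.17) lie well below 0 and Npas2 above.

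The libraries differed in their levels of cell type markers. Column sums ran from 385846 to 514281 FPKM, and 11466 to 12996 genes reached 1 FPKM. Markers of smooth muscle (Acta2, 485 to 6288 FPKM), endothelium (Pecam1, 43.0 to 156) and fibroblasts (Dcn, 260.4 to 589) were present in every library, and so were those of fat (Adipoq, 324 to 882) and brown fat (Ucp1, 192 to 4133). The mean log2 level of lymphocyte genes was 5.32, 4.10 and 5.93 for AngII libraries 3, 4 and 5, and it was 0.44 to 2.62 in Sham and 0.67 to 1.12 in the other infused libraries. Erythroid genes averaged 7.74 to 9.12 in AngII+RvE1, 6.37 to 8.25 in AngII and 5.87 to 7.44 in Sham. Without AngII libraries 3, 4 and 5, 12 genes were higher and 1 lower, and 12 of the 19 kept their call, 8 of them clock genes. Mycl was below the filter in that fit and was not tested. Apart from leaving out these libraries and a fat covariate, the part of these cell markers in the calls was not tested.

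Lists of genes were read by their counts and medians, beside a median log2 difference of 0.06 over all genes tested. Of these 12603 genes, 7910 had a difference above 0. Contractile smooth muscle genes had a pooled median of -0.26 over 20 members, which joins -1.15 in AngII to 0.50 in AngII+RvE1. No member was called in the pooled comparison by limma, and 1 was lower at an unadjusted p under 0.05 (2.61% of all genes). Between the infused groups 14 of 20 differed, against 8.52% of all genes. Acta2, the smooth muscle actin, averaged 3179 ± 2165 FPKM in Sham, 934 ± 402 in AngII and 3831 ± 811 in AngII+RvE1 (pooled difference -0.50, adjusted p = 0.665). Myh11, the smooth muscle myosin, averaged 367 ± 180 FPKM in Sham, 135 ± 53.9 in AngII and 490.5 ± 115 in AngII+RvE1 (-0.38, adjusted p = 0.691). Kcnmb1, a subunit of the calcium-activated potassium channel of smooth muscle, gave -0.55 (adjusted p = 0.561). Pooled medians near 0 that join opposed AngII and AngII+RvE1 medians were also seen for elastic fiber genes (0.03, from -0.46 and 0.50), collagens (0.17, from -0.28 and 0.53) and other matrix genes (0.07, from -0.36 and 0.38), with 0 called members each. At an unadjusted p under 0.05, 0 of 18 elastic fiber genes, 0 of 17 collagens and 2 of 22 other matrix genes passed. Over all genes tested the share in both directions was 11.5%.

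**Figure D4:**
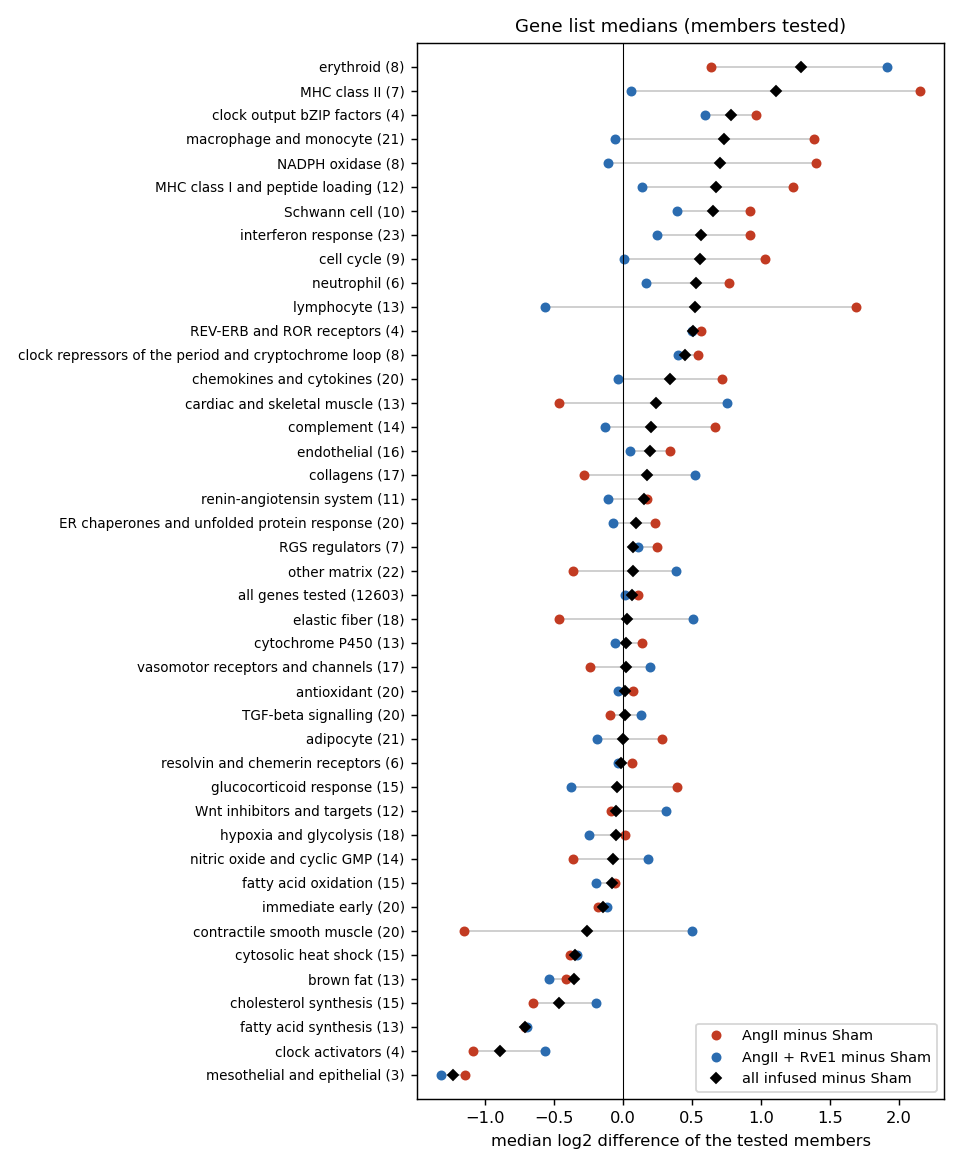
Median log2 difference from Sham over the tested members of each gene list (number of members in brackets), for AngII, for AngII+RvE1 and for all infused libraries together. Contractile smooth muscle (-0.26 pooled) lies between opposed groups, and fatty acid synthesis (-0.71) is at the same place in both. MHC class II (1.11) is carried mainly by AngII libraries 3, 4 and 5 (mean log2 levels 8.01, 6.78 and 8.42). AngII libraries 1 and 2 had 4.70 and 5.19, against 3.77 to 4.93 in Sham.

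Immune lists had positive pooled medians, each larger in AngII than in AngII+RvE1. MHC class II genes, which present antigen to helper T cells, had a pooled median of 1.11, from 2.16 in AngII and 0.06 in AngII+RvE1. At an unadjusted p under 0.05, 6 of 7 members were higher, against 8.89% of all genes tested, and 0 were called by limma. MHC class I genes had 0.67, from 1.23 and 0.14 (10 of 12 unadjusted, 0 called). The interferon response list had 0.56, from 0.92 and 0.25 (17 of 23 unadjusted, 0 called), and macrophage and monocyte genes had 0.73, from 1.39 and -0.06 (7 of 21 unadjusted, 0 called). The lymphocyte list had 0.52, from 1.69 and -0.57, with 0 of 13 at an unadjusted p under 0.05. Without AngII libraries 3, 4 and 5 these pooled medians were 0.39 for MHC class II, 0.32 for MHC class I, 0.39 for interferon response, 0.19 for macrophages and -0.56 for lymphocytes. The lymphocyte median changed sign, but only 8 of its 13 members passed the filter without those libraries, so its 2 medians cover different genes.

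Lipid synthesis lists had medians below 0 in both infused groups, and nearly all members missed the threshold. The fatty acid synthesis list had a median of -0.71 (-0.71 in AngII, -0.69 in AngII+RvE1), with 11 of 13 members below 0. At an unadjusted p under 0.05, 5 were lower, against 2.61% of all genes tested, and 0 were called by limma. The cholesterol synthesis list had -0.46 (-0.65 and -0.19), with 7 of 15 members lower at an unadjusted p under 0.05 and Cyp51 called. These genes are abundant in fat, and their spread within Sham was wide: Fasn, the fatty acid synthase, chosen after its values were seen, ran from 390 to 2058 FPKM in Sham and from 242 to 1837 after infusion. The adipocyte list had a median difference from Sham of 0.28 in AngII and -0.19 in AngII+RvE1. Between these infused groups, 4 of its 21 members were called. Averaged over this list, log2 levels were 8.06 ± 0.47 in infused and 8.03 ± 0.44 in Sham libraries (SD), so the infused value joins opposed groups. With that mean as a covariate, 52 genes were higher and 61 lower (113 in all, 0.897%), all 19 genes stayed called, and 3 of 13 fatty acid and 4 of 15 cholesterol synthesis genes were lower, against 0.484% of all genes.

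The lipid genes that passed with the fat covariate were named after their values had been seen. Elovl5, which elongates polyunsaturated fatty acids, had 37.8, 63.7, 49.7, 65.2 and 46.2 FPKM in Sham and 26.2 to 41.9 FPKM after infusion. Only AngII+RvE1 library 2 lay above the lowest Sham library. The difference was -0.68 (SE 0.14, adjusted p = 0.0908) without and -0.69 (SE 0.091, adjusted p = 0.00400) with the covariate, so the estimate held and the error shrank. Acly, which makes acetyl-CoA for fat synthesis, gave -1.51 (adjusted p = 0.0244) and Scd2, a desaturase, -1.16 (adjusted p = 0.0250) with the covariate. Among sterol genes, Hmgcs1, an early enzyme of the pathway, gave -0.71 (adjusted p = 0.00530), Insig1, a sterol sensor, -1.07 (adjusted p = 0.00803), and Lss, which closes the sterol rings, -0.60 (adjusted p = 0.0254). Cry1 (-0.73, adjusted p = 0.0235) and Cry2 (0.56, adjusted p = 0.0362) passed as well in that fit.

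**Figure D5:**
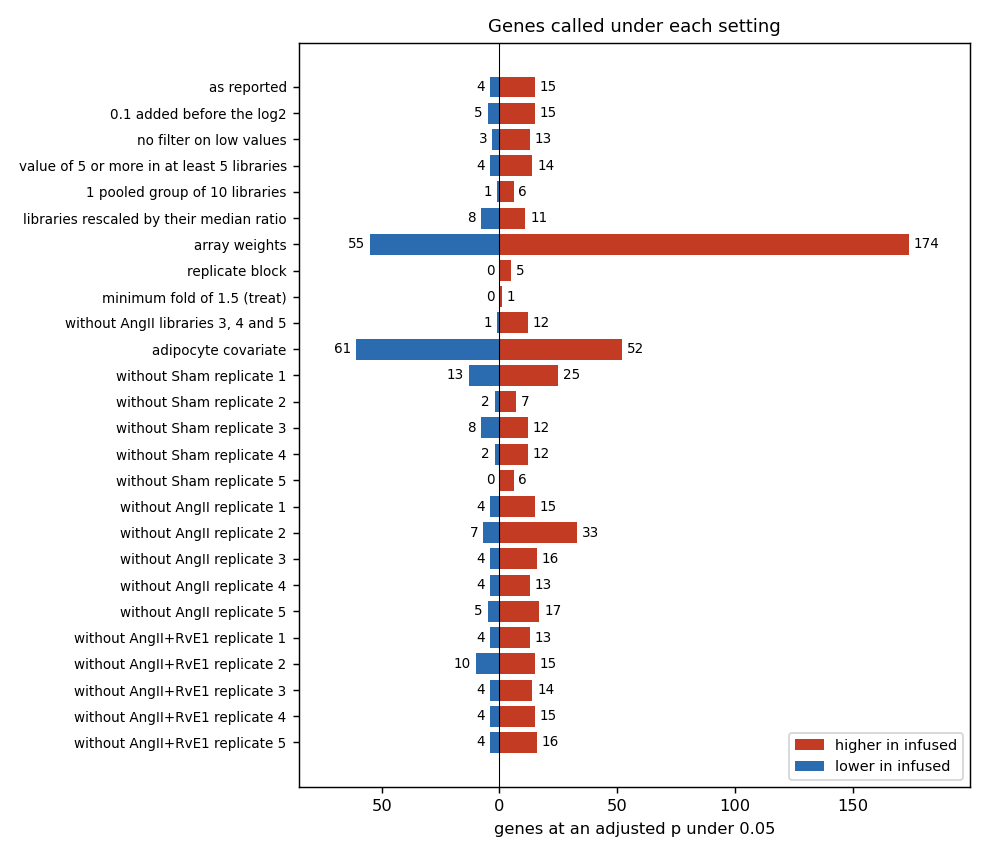
Number of genes called higher (right) and lower (left) in infused libraries at an adjusted p under 0.05 under each setting, with the count beside each bar. Beside the reported 15 and 4, counts run from 1 and 0 with a minimum fold of 1.5 to 174 and 55 with library weights, and 61 lower genes came with the fat covariate.

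Erythroid genes, a sign of red cell RNA, had a median of 1.29 (0.64 in AngII, 1.91 in AngII+RvE1). Of the list, 8 of 8 members were above 0, against 7910 of all 12603 genes tested. At an unadjusted p under 0.05, 7 were higher, against 8.89% of all genes tested, and 0 were called by limma. The cytosolic heat shock list had -0.35 (-0.38 and -0.34), with 1 of 15 members above 0 and 0 at an unadjusted p under 0.05. Glucocorticoid response genes had -0.05 (0.39 and -0.38), with 2 of 15 lower at an unadjusted p under 0.05 (2.61% of all genes) and 0 called. Immediate early genes had -0.14 (-0.18 and -0.11), and 0 of 20 passed even without adjustment.

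Genes of the angiotensin and resolvin systems did not pass. Agtr1a, the main AngII receptor of the mouse vessel wall, averaged 2.18 ± 0.70 FPKM in Sham and 4.02 ± 1.30 after infusion (0.63, SE 0.20, adjusted p = 0.281). Agt, which encodes angiotensinogen, gave 0.84 (adjusted p = 0.439), with 1.62 in AngII and 0.06 in AngII+RvE1. Ace, the converting enzyme, gave 0.19 (adjusted p = 0.850), and this value was -0.14 without Sham library 3. Cmklr1, which encodes a receptor for RvE1 and chemerin, gave 0.09 (adjusted p = 0.909), and Rarres2, which encodes chemerin, -0.36 (adjusted p = 0.512). Agtr1b and Il6 were below the filter. Over the 11 tested genes of the renin-angiotensin list the median was 0.15, with 1 higher at an unadjusted p under 0.05 (8.89% of all genes) and 0 called.

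Genes often measured in infused aortas did not pass the pooled test either. Among matrix genes, Col1a1 gave 0.53 (adjusted p = 0.646), Col3a1 0.35 (adjusted p = 0.759), Fn1 0.31 (adjusted p = 0.773), Eln 0.24 (adjusted p = 0.881) and Postn 0.28 (adjusted p = 0.812). Eln, which encodes elastin, averaged 411 ± 229.9 FPKM in Sham, 230.4 ± 141 in AngII and 894 ± 383 in AngII+RvE1, so its pooled value joins levels on both sides of Sham. Adhesion molecules Vcam1 (0.83, adjusted p = 0.411) and Icam1 (0.61, adjusted p = 0.473) were highest in AngII libraries 3 and 5. Vcam1 reached 44.7 and 35.5 FPKM there, against 4.26 to 7.61 in Sham. Tgfb1, a growth factor of fibrosis, gave 0.68 (adjusted p = 0.457), with its highest values, 91.7 and 81.1 FPKM, in the same AngII libraries. Of the NADPH oxidase subunits, Nox4 of smooth muscle gave -0.57 (adjusted p = 0.571) and Cybb of phagocytes 0.82 (adjusted p = 0.457). Endothelial genes Nos3 (0.16, adjusted p = 0.796) and Edn1 (0.10, adjusted p = 0.921), and the inflammatory genes Ccl2 (0.11, adjusted p = 0.945), Il1b (0.33, adjusted p = 0.779) and Spp1 (0.97, adjusted p = 0.715), did not pass.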

How the data were processed

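The 15 mouse aorta RNA libraries were prepared with a SMARTER kit and sequenced, per the labels' protocols. The authors deposited 1 table of gene symbols with 1 value per library, and its header names no unit. Values were treated as FPKM as deposited by the authors: they have decimals and unequal column sums. Over 6872 genes with 1 transcript, low values multiplied by transcript length dropped off at a step in each library. In 14 libraries the steps of shorter and longer genes lay within 7 of each other. In AngII library 5 the step was 59 for shorter and 77 for longer genes. TPM could not be told apart from FPKM, and depth is unknown, so no counting error is given. The submitters' processing notes name the build mm10, while aligner, quantifier and annotation version were not given in sources used here. Coordinates come from RefSeq (GRCm38.p6), where all 34714 symbols were found.

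Genes with at least 1 FPKM in at least 5 libraries were kept and values taken as log2(FPKM + 1). limma-trend (limma 3.58.1, R 4.3.3) was fitted with 3 group means, and the contrast was the mean of the infused groups minus Sham, two-sided, with Benjamini-Hochberg adjustment over all genes tested and a threshold of 0.05. The model was tested on simulated data. Figures were drawn with matplotlib 3.10.9. Groups and lists were chosen with earlier results of these data known, so lists carry no test. Genes were named as the 10 largest changes in each direction among called genes without overlap and with a mean of at least 5, the 10 smallest adjusted p, up to 4 called members of each list, up to 6 called genes that differed between the infused groups, and 27 fixed genes. Members of the clock lists are described as well. Of the genes so named, 2 are not reported here and stay in every count. Alternatives were an added 0.1, no filter, a filter at 5 FPKM, a single pooled group, rescaling, library weights, a replicate block, a minimum fold of 1.5, a fat covariate, and libraries left out.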

Additional observations from a re-analysis of the deposited data

Results flagged for a closer look

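In 17 of the named genes the infused groups differed from each other by limma at an adjusted p under 0.05, so that their pooled value averages unlike groups (values are AngII+RvE1 minus AngII, log2). Up to 6 of these were named for that difference, so the count is partly set by the naming rule. Of all genes tested, 1074 (8.52%) differed in this way. Called in the pooled comparison were Ralgds (-1.05), Slc5a6 (-1.09), Npas2 (1.33), Ciart (-1.16), Mycl (-1.57), St3gal6 (-1.01), Ddhd1 (-0.54) and Ivns1abp (-0.79). Not called there were Agt (-1.56), Cybb (-1.69) and Cry1 (-0.65), which were lower with RvE1, and Acta2 (2.11), Myh11 (1.92), Kcnmb1 (2.03), Eln (2.04), Nox4 (1.55) and Postn (1.65), which were higher. Cry1 is the clock gene whose distance from Sham was greater in AngII+RvE1 (-1.05) than in AngII (-0.40).

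A single library stood far from the other 4 of its group in 7 of 150 sets of gene and group, and chance gives about 1 in 20. Sham library 3 was high in Cyp51 (15.2 FPKM) and low in Ace (12.2). AngII library 3 was high in Ccl2 (24.0 FPKM) and Spp1 (300.4), and Sham library 4 was high in Ccl2 (6.47). AngII+RvE1 library 3 was low in Cmklr1 (5.59 FPKM) and library 2 low in Postn (178.5).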

How the results depend on the processing

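Against the reported 15 higher and 4 lower genes, a single pooled group gave 6 and 1, library weights 174 and 55, a replicate block 5 and 0, 1 and 0 came with a minimum fold of 1.5, and 52 and 61 with the fat covariate. Rescaling gave 8 lower genes, and leaving out AngII libraries 3, 4 and 5 gave 1. Leaving out 1 library gave 6 to 33 higher and 0 to 13 lower genes: 25 and 13 without Sham 1, 7 and 2 without Sham 2, 12 and 8 without Sham 3, 12 and 2 without Sham 4, 6 and 0 without Sham 5, 33 and 7 without AngII 2, and 15 and 10 without AngII+RvE1 2. Dbp was called under each setting, and Per3, Tef, Nr1d1 and Nr1d2 under each but the minimum fold. The block kept these 5 genes. Same-numbered libraries correlated above 0.1 in 4 of 15 pairs (-0.41 to 0.52), and 2 libraries correlated best with their own number. Over all genes no pairing by number was seen, and a pairing that touches few genes could not be seen this way. Signs turned in genes that were not called. Ccl2 turned with weights (-0.216), without AngII 3 to 5 (-0.269), Sham 5 (-0.038), AngII 3 (-0.186) or AngII+RvE1 1 (-0.00613), with a highest value without 1 library of 0.401. Cmklr1 turned with weights (-0.050) and without AngII 3 to 5 (-0.076), and ran from -0.163 (without Sham 3) to 0.235. Il1b turned with weights (-0.071). Without 1 library, Ace ran from -0.139 (Sham 3) to 0.308, Eln from -0.224 (Sham 3) to 0.492, Nos3 from -0.00196 (Sham 2) to 0.338, Edn1 from -0.043 (Sham 2; -0.00302 without Sham 3) to 0.226, Per1 from -0.129 (Sham 2) to 0.413 and Bhlhe40 from -0.082 (Sham 5) to 0.335. The cause of these shifts was not tested. Depth is unknown, so the limit it sets on low genes cannot be given.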
